A study of Mus musculus with 6 samples.

Results

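The 10 genes described here encode the interleukin-2 (IL-2) receptor and the STAT5 pathway behind it: the receptor chains Il2ra, Il2rb and Il2rg, the kinases Jak1 and Jak3, the transcription factors Stat5a and Stat5b, and the feedback inhibitors Cish, Socs1 and Socs2. They were picked out by gene symbol, and the choice was made with earlier results of these data known. All 10 are among the 14608 genes of the 2 deposited tables, and all 10 passed the filter on low values that left 12233 genes for testing. The cells were regulatory T (Treg) cells of mouse spleen, flow-sorted as positive for CD4 and the fluorescent protein YFP, and their RNA was sequenced in bulk. Each of 3 genotypes gave 2 mice and 2 libraries: wild type (WT), heterozygous Cdc42 knockout (Cdc42+/-) and homozygous Cdc42 knockout (Cdc42-/-). Cdc42 is a small GTPase that organises actin and cell polarity. All groups were sorted on YFP, and no treatment is named. Strain, age, sex, the promoter behind YFP and the cells that lose Cdc42 are not given in the sources used here.

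IL-2 binds a receptor whose alpha chain, Il2ra or CD25, raises its affinity, while the beta chain (Il2rb, or CD122) and the common gamma chain (Il2rg, or CD132) carry the signal. JAK1 sits on the beta chain and JAK3 on the gamma chain, and both phosphorylate STAT5A and STAT5B, which enter the nucleus and bind DNA as dimers. Cish, Socs1 and Socs2 are induced by this signal and dampen it. Treg cells make little IL-2 of their own, carry CD25 at a high level and need IL-2 from other T cells to survive and to keep Foxp3, the transcription factor that defines them.

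Levels are RPKM, reads scaled to gene length and to the library's total, which can be set side by side between genes. Differences are on the log2(RPKM + 1) scale with limma's standard error (SE), and a gene was called when its adjusted p over all 12233 genes was under 0.05. Libraries held 8556576 to 17796100 reads in genes, and 609 to 18373 reads lay behind each value of the 10 genes. For Cdc42 itself the WT libraries had 166 and 161 RPKM, those labelled Cdc42+/- had 164 and 156, and those labelled Cdc42-/- had 122 and 173. The targeted gene thus did not separate the labels, and every direction below rests on the labels alone. For Foxp3 the WT libraries had 131 and 118 RPKM, those labelled Cdc42+/- had 113 and 103, and those labelled Cdc42-/- had 118 and 58.4. Replicate 2 of Cdc42-/- stood apart: 8 myeloid markers, none at 0 in any library, summed to 1214 RPKM there, against 12.9 to 44.3 RPKM in the other 5 libraries. The 6 markers of Treg and CD4 T cells summed to 875 RPKM in that library, 1063 RPKM in replicate 1 of Cdc42-/- and 1348 to 1426 RPKM elsewhere. Sex-linked genes divided the libraries too. For Xist the WT libraries had 0.199 and 1.13 RPKM, those labelled Cdc42+/- had 99.3 and 93.3, and those labelled Cdc42-/- had 87.4 and 21.2, and for the Y-linked gene Ddx3y the WT libraries had 37.7 and 42.4 RPKM, those labelled Cdc42+/- had 0.126 and 0, and those labelled Cdc42-/- had 0.0974 and 27.5. Genotype and sex-linked expression cannot be told apart between Cdc42+/- and WT. Replicate 1 of Cdc42-/- also differed from WT in both genes, and replicate 2 held RNA of Xist and Ddx3y together. Sex-linked expression thus differed between Cdc42-/- and WT too, and its part in the results was not tested.

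**Figure D1:**
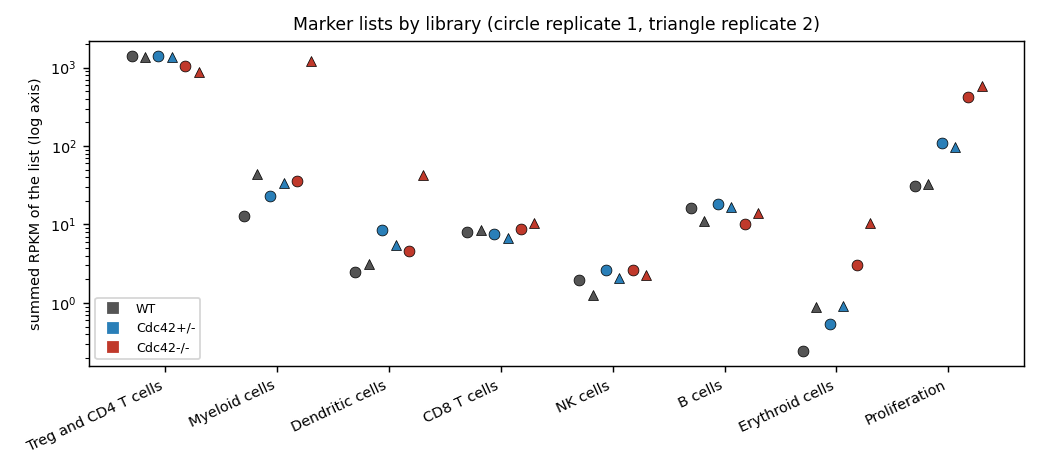
Summed RPKM of each marker list (log axis) in each library, by genotype (colour) and replicate (circle 1, triangle 2). The myeloid sum of Cdc42-/- replicate 2, 1214 RPKM, lies far above those of the other 5 libraries.

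Each of the 10 genes was well expressed, and even Socs2, the lowest, was above 72.35% of all genes in the library where it ranked lowest. In WT the mean was 408 ± 28.99 RPKM for Il2rb, 380.2 ± 19.8 for Il2rg, 219 ± 17.3 for Il2ra, 174 ± 14.7 for Jak1, 86.1 ± 10.02 for Jak3, 80.4 ± 4.48 for Cish, 53.9 ± 2.30 for Stat5b, 38.6 ± 1.60 for Socs1, 34.7 ± 0.565 for Stat5a and 32.8 ± 3.01 for Socs2 (SD, n = 2). In this order the WT libraries overlapped between the neighbours Il2rb and Il2rg, Jak3 and Cish, and Stat5a and Socs2, and not between the others. Il2ra stood above Jak1 in WT and below it in both Cdc42+/- libraries. Likewise Il2rb stood above Il2rg in WT and below it in both Cdc42+/- libraries.

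**Figure D2:**
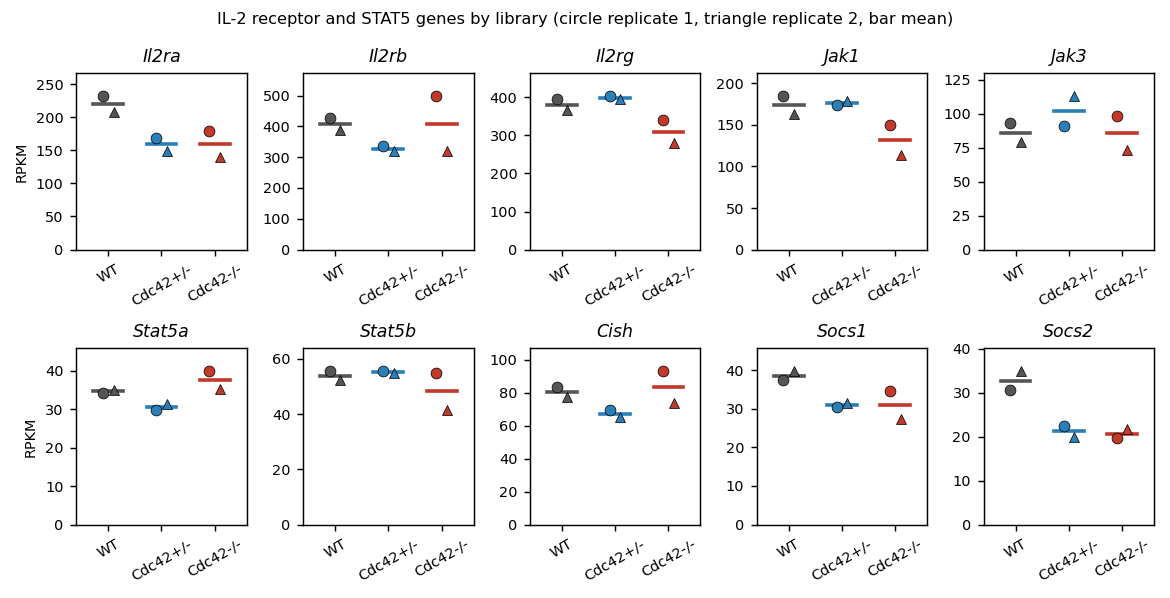
RPKM of the 10 genes in each of the 6 libraries (circle replicate 1, triangle replicate 2, bar the mean of a genotype), each panel from 0. Socs2, Socs1 and Il2ra are lower in all 4 knockout libraries than in both WT libraries, and the Cdc42-/- libraries lie far apart for Il2rb.

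Of the receptor chains Il2ra, Il2rb and Il2rg, limma with all libraries called 0 in any of the 3 comparisons. For Il2ra (gene ID 16184, chr2:11642792-11693194, plus strand, in GRCm38.p6) the WT libraries had 232 and 207 RPKM, those labelled Cdc42+/- had 169 and 149, and those labelled Cdc42-/- had 178 and 139. Every knockout library was below both WT libraries, and the knockout genotypes overlapped each other. The difference from WT was -0.46 (SE 0.15, 95% interval -0.83 to -0.09, limma adjusted p 0.926) in Cdc42+/- and -0.47 (SE 0.15, 95% interval -0.84 to -0.10, limma adjusted p 0.101) in Cdc42-/-, and neither was called. Without Cdc42-/- replicate 1 the second was called, at -0.65 (adjusted p 0.00536), and without replicate 2, the library rich in myeloid markers, it was -0.29 (adjusted p 0.117) and not called. The authors' deposited table gives Il2ra a log2 fold change of -0.49 with an adjusted p of 3.82e-05 in Cdc42+/- and -0.51 with an adjusted p of 0.216 in Cdc42-/-. The sizes were thus alike in both sources, whereas limma and the authors' test placed Cdc42+/- on different sides of the threshold.

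For Il2rb (gene ID 16185, chr15:78479256-78511621, minus strand) the WT libraries had 428 and 387 RPKM, those labelled Cdc42+/- had 336 and 319, and those labelled Cdc42-/- had 498 and 319. WT and Cdc42+/- did not overlap, and the Cdc42-/- libraries were the highest and the lowest of all 6. The differences from WT were -0.31 (SE 0.21, limma adjusted p 0.999) in Cdc42+/- and -0.03 (SE 0.21, 95% interval -0.55 to 0.49, limma adjusted p 0.936) in Cdc42-/-. Which Cdc42-/- library was left out turned the sign of the second: it was 0.29 (adjusted p 0.0848) without replicate 2 and -0.35 (adjusted p 0.0283) without replicate 1. The authors' deposited table gives Il2rb a log2 fold change of -0.34 with an adjusted p of 0.00623 in Cdc42+/-.

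For Il2rg (gene ID 16186, chrX:101264385-101268255, minus strand) the WT libraries had 394 and 366 RPKM, those labelled Cdc42+/- had 403 and 395, and those labelled Cdc42-/- had 339 and 281. The Cdc42-/- libraries were the lowest of the 6. Their difference was -0.30 (SE 0.13, limma adjusted p 0.186) from WT and -0.37 (SE 0.13, limma adjusted p 0.136) from Cdc42+/-, and neither was called. Without Cdc42-/- replicate 1 both were called, at -0.43 (adjusted p 0.00921) and -0.50 (adjusted p 0.00575). Without replicate 2 neither was, at -0.16 (adjusted p 0.246) and -0.23 (adjusted p 0.128). The gene lies on the X chromosome. Xist separated WT from Cdc42+/- and differed between the Cdc42-/- libraries, at 87.4 and 21.2 RPKM. The part of sex-linked expression in the Il2rg result was not tested.

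Ratios within a library set the chains against each other. Il2rb over Il2ra was 1.85 and 1.87 (WT), 1.99 and 2.14 (Cdc42+/-), and 2.79 and 2.28 (Cdc42-/-). Il2rg over Il2ra was 1.70 and 1.77 (WT), 2.38 and 2.65 (Cdc42+/-), and 1.90 and 2.01 (Cdc42-/-). Both ratios were higher in all 4 knockout libraries than in both WT libraries, and both share the Il2ra value. With 2 libraries a group, a two-sided exact permutation test cannot go below p = 0.333. Cd3e, a chain of the T cell receptor complex, was added as a reference after its values were seen: the WT libraries had 372 and 382 RPKM, those labelled Cdc42+/- had 395 and 376, and those labelled Cdc42-/- had 237 and 202. Il2ra over Cd3e was 0.622 and 0.543 (WT), 0.428 and 0.396 (Cdc42+/-), and 0.752 and 0.691 (Cdc42-/-). The Cdc42-/- libraries, low for Il2ra in RPKM, were the highest on this scale, whereas Cdc42+/- was the lowest. Il2ra over Foxp3 was 1.76 and 1.75 (WT), 1.50 and 1.44 (Cdc42+/-), and 1.51 and 2.39 (Cdc42-/-), and on that scale the Cdc42-/- libraries lay on either side of WT. In bulk RNA, fewer cells of a type and less RNA per cell cannot be told apart.

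**Figure D3:**
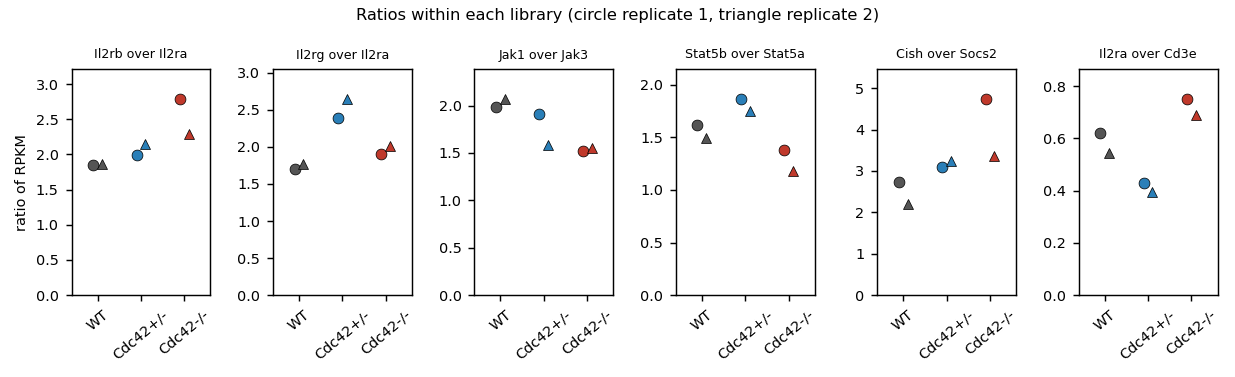
Ratios of RPKM between 2 genes of the same library (circle replicate 1, triangle replicate 2). Il2rb over Il2ra is lowest in the WT libraries, and Il2ra over Cd3e is lowest in the Cdc42+/- libraries.

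Of the kinases, Jak1 was the more abundant. For Jak1 (gene ID 16451, chr4:101151974-101265282, minus strand), which also serves the interferon receptors, the WT libraries had 184 and 164 RPKM, those labelled Cdc42+/- had 173 and 178, and those labelled Cdc42-/- had 149.6 and 114. WT and Cdc42+/- overlapped, and both Cdc42-/- libraries lay below them. The difference in Cdc42-/- was -0.41 (SE 0.15, 95% interval -0.78 to -0.04, limma adjusted p 0.138) from WT and -0.43 (SE 0.15, limma adjusted p 0.14) from Cdc42+/-, short of the threshold. Among 12 alternatives it was called only without Cdc42-/- replicate 1, at -0.61 (adjusted p 0.00391) and -0.63 (adjusted p 0.00395). Without replicate 2 it was smaller, at -0.21 (adjusted p 0.177) and -0.23 (adjusted p 0.162).

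For Jak3 (gene ID 16453, chr8:71676383-71690577, plus strand), which works with receptors that hold the gamma chain, the WT libraries had 93.2 and 79.00 RPKM, those labelled Cdc42+/- had 90.7 and 113, and those labelled Cdc42-/- had 98.6 and 73.2. All 3 genotypes overlapped. The differences from WT were 0.24 (SE 0.19, 95% interval -0.22 to 0.69, limma adjusted p 0.999) in Cdc42+/- and -0.01 (SE 0.19, 95% interval -0.47 to 0.44, limma adjusted p 0.969) in Cdc42-/-. Jak1 over Jak3 was 1.98 and 2.07 (WT), 1.91 and 1.58 (Cdc42+/-), and 1.52 and 1.55 (Cdc42-/-), lower in all 4 knockout libraries than in both WT libraries.

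The STAT5 genes lie side by side on chromosome 11. For Stat5b (gene ID 20851, chr11:100780731-100859004, minus strand) the WT libraries had 55.6 and 52.3 RPKM, those labelled Cdc42+/- had 55.6 and 54.7, and those labelled Cdc42-/- had 55.03 and 41.4. Its genotypes overlapped, and 1 library, Cdc42-/- replicate 2, lay below the other 5. The differences from WT were 0.03 (SE 0.15, limma adjusted p 0.999) in Cdc42+/- and -0.17 (SE 0.15, 95% interval -0.53 to 0.19, limma adjusted p 0.484) in Cdc42-/-. The second was 0.03 (adjusted p 0.858) without Cdc42-/- replicate 2 and -0.37 (adjusted p 0.0203) without replicate 1.

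For Stat5a (gene ID 20850, chr11:100859351-100885169, plus strand) the WT libraries had 34.3 and 35.1 RPKM, those labelled Cdc42+/- had 29.8 and 31.3, and those labelled Cdc42-/- had 39.9 and 35.2. The genotypes did not overlap, with Cdc42+/- the lowest and Cdc42-/- the highest, although the nearest WT and Cdc42-/- values almost touched. The differences were -0.18 (SE 0.11, limma adjusted p 0.999) between Cdc42+/- and WT, 0.11 (SE 0.11, limma adjusted p 0.552) between Cdc42-/- and WT, and 0.29 (SE 0.11, limma adjusted p 0.164) between Cdc42-/- and Cdc42+/-, and none was called. Stat5b over Stat5a was 1.62 and 1.49 (WT), 1.87 and 1.75 (Cdc42+/-), and 1.38 and 1.18 (Cdc42-/-), without overlap between genotypes. The pair are close copies: 15.8% of all windows of 50 nt in the longest Stat5a transcript of GENCODE M21 are also found, letter for letter, in Stat5b. How reads from such stretches were assigned is not given in the sources used here, and the split between the pair is uncertain to that extent.

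The feedback inhibitors held the gene that was called. For Socs2 (gene ID 216233, chr10:95383903-95417321, minus strand), best known as a brake on growth hormone and STAT5 signalling, the WT libraries had 30.6 and 34.9 RPKM, those labelled Cdc42+/- had 22.5 and 19.96, and those labelled Cdc42-/- had 19.6 and 21.8. Every knockout library was below both WT libraries, and the knockout genotypes overlapped. Socs2 fell in Cdc42-/-, with a difference of -0.64 (SE 0.13, 95% interval -0.95 to -0.32, limma adjusted p 0.0319) from WT, to 0.632 times the WT mean. The call was kept without Cdc42-/- replicate 1, at -0.56 (adjusted p 0.0177), and without replicate 2, at -0.71 (adjusted p 0.0137). It was lost with WT and Cdc42-/- fitted on their own (adjusted p 0.0945), with the replicate block (0.0532) and on leaving out any of the 4 WT and Cdc42+/- libraries (0.0946 to 0.202). In Cdc42+/- the difference from WT was -0.60 (SE 0.13, 95% interval -0.92 to -0.29, limma adjusted p 0.489), nearly as large and not called. The authors' deposited table gives Socs2 a log2 fold change of -0.65 with an adjusted p of 1.17e-05 in Cdc42+/- and -0.71 with an adjusted p of 0.0497 in Cdc42-/-. Between the knockout genotypes the difference was -0.03 (SE 0.13, 95% interval -0.35 to 0.28, limma adjusted p 0.884). Socs2 over Cd3e was 0.0823 and 0.0914 (WT), 0.0571 and 0.0530 (Cdc42+/-), and 0.0826 and 0.108 (Cdc42-/-), so that on this scale the Cdc42-/- libraries were not below WT and the Cdc42+/- libraries were. Socs2 over Foxp3 was 0.233 and 0.295 (WT), 0.1999 and 0.193 (Cdc42+/-), and 0.165 and 0.373 (Cdc42-/-), with the Cdc42-/- libraries on either side of WT.

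For Socs1 (gene ID 12703, chr16:10783808-10785536, minus strand), which binds and blocks JAK kinases directly, the WT libraries had 37.5 and 39.8 RPKM, those labelled Cdc42+/- had 30.4 and 31.5, and those labelled Cdc42-/- had 34.7 and 27.5. As with Socs2, all 4 knockout libraries were below both WT libraries. The difference from WT was -0.31 (SE 0.14, limma adjusted p 0.999) in Cdc42+/- and -0.31 (SE 0.14, limma adjusted p 0.188) in Cdc42-/-, and neither was called. Without Cdc42-/- replicate 1 the second was -0.48 (adjusted p 0.0118), and without replicate 2 it was -0.15 (adjusted p 0.337). The authors' deposited table gives -0.35 with an adjusted p of 0.0583 in Cdc42+/- and -0.35 with an adjusted p of 0.554 in Cdc42-/-.

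For Cish (gene ID 12700, chr9:107296659-107302784, plus strand), a direct STAT5 target whose protein competes for docking sites on the receptor, the WT libraries had 83.6 and 77.2 RPKM, those labelled Cdc42+/- had 69.5 and 64.9, and those labelled Cdc42-/- had 92.9 and 73.5. The Cdc42+/- libraries were the lowest of the 6, and WT and Cdc42-/- overlapped. The differences were -0.26 (SE 0.14, limma adjusted p 0.999) between Cdc42+/- and WT, 0.04 (SE 0.14, 95% interval -0.29 to 0.38, limma adjusted p 0.868) between Cdc42-/- and WT, and 0.30 (SE 0.14, limma adjusted p 0.229) between Cdc42-/- and Cdc42+/-. With upper-quartile scaling the second turned to -0.04. The last was called without Cdc42-/- replicate 2, at 0.46 (adjusted p 0.0226), and was 0.13 (adjusted p 0.327) without replicate 1. Cish over Socs2 was 2.73 and 2.21 (WT), 3.09 and 3.25 (Cdc42+/-), and 4.74 and 3.37 (Cdc42-/-), higher in all 4 knockout libraries than in both WT libraries. Cish over Cd3e was 0.224 and 0.202 (WT), 0.176 and 0.172 (Cdc42+/-), and 0.392 and 0.364 (Cdc42-/-). On this scale both Cdc42-/- libraries were above WT, where in RPKM they overlapped, and both Cdc42+/- libraries were below it.

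The STAT5 consensus, TTCNNNGAA, reads the same on both strands. It was searched in the RefSeq promoters of GRCm38.p6, each 250 bases before a gene's start and 50 after it, of which 10 belong to 8 of the 10 genes. Of all 32851 promoters, 8.30% held a match and 0.457% held 2 or more. Among these 8 genes Cish held 2 matches, which do not overlap, and the others held 0, which says only that these letters are not in those windows. The matches begin at positions 1 and 12, counted with the gene's first base as 1. They stand in capitals in the 250 bases before the start and the 20 from it (chr9:107296409-107296678, plus strand), shown because Cish is a widely used readout of STAT5.
Cish: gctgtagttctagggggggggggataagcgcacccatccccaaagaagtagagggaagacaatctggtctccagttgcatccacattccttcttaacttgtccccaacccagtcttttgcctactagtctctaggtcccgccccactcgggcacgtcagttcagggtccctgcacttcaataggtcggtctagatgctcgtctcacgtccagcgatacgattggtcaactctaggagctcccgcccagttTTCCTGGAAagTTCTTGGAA
A match is a description of the sequence, and no binding was measured here.

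Few of the 10 genes were called in any comparison. Between Cdc42+/- and WT, 0 of 10 were called by limma, as were 0% of all genes tested, and limma-voom on the recovered reads called 0 of the 10. Il2ra and Socs2, 2 of the 10, had an unadjusted p under 0.05, as had 4.32% of all genes. The libraries did not overlap for 7 of the 10, against 43.2% of all genes. Of these, 6 were lower in Cdc42+/- (Il2ra, Il2rb, Stat5a, Cish, Socs1 and Socs2), against 17.0% of all genes, and Il2rg was higher. The median difference was -0.22 over the 10 and 0.03 over all genes. The authors' deposited table calls 3 of the 10, Il2ra, Il2rb and Socs2, each lower, against 2.28% of its genes in either direction and 0.561% lower.

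Between Cdc42-/- and WT, 1 of the 10 was called, against 11.4% of all genes (4.57% lower and 6.86% higher), a share near the background. For 3 of the 10 (Il2ra, Jak1 and Socs2) the unadjusted p was under 0.05, against 29.3% of all genes. The libraries did not overlap for 6 of the 10, against 56.0%, and 5 of them were lower (Il2ra, Il2rg, Jak1, Socs1 and Socs2), against 27.1%. The median difference was -0.24 over the 10 and 0.01 over all genes. Without Cdc42-/- replicate 1 the count was 7 (Il2ra, Il2rb, Il2rg, Jak1, Stat5b, Socs1 and Socs2, each lower), and without replicate 2 it was 1, Socs2, while 4433 and 2263 of all genes were called (36.2% and 18.5%). The authors' deposited table calls 1 of the 10, Socs2, against 8.66% of its genes and 2.66% lower. Both comparisons share the WT libraries.

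Between Cdc42-/- and Cdc42+/-, 0 of 10 were called by limma, against 8.22% of all genes (4.68% higher and 3.54% lower), and limma-voom called 0 of the 10. For 3 of the 10 the unadjusted p was under 0.05, against 27.1%: Il2rg and Jak1 were lower and Stat5a higher. The libraries did not overlap for 4 of the 10 (these 3 and Cish), against 59.0% of all genes in either direction and 30.4% lower. Without replicate 1 of Cdc42-/-, Il2rg, Jak1 and Stat5b were called as lower, and without replicate 2, Il2rb, Stat5a and Cish were called as higher. In the same fits 34.8% and 14.9% of all genes were called. In Cdc42-/-, replicate 2 was below replicate 1 for 9 of the 10 genes, all but Socs2. The myeloid markers of replicate 2 moved with these differences; their part was not tested.

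**Figure D4:**
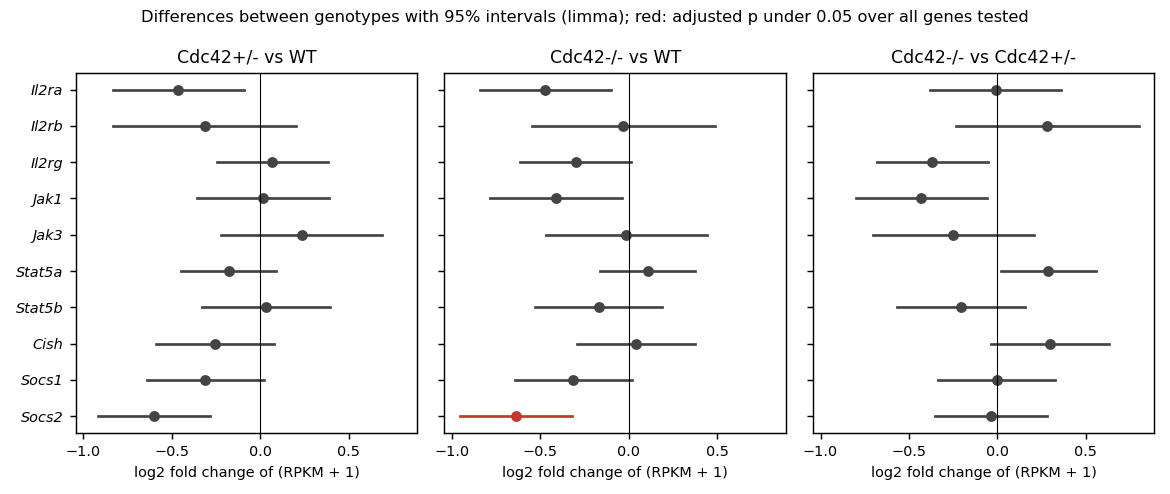
Difference on the log2(RPKM + 1) scale for each gene in the 3 comparisons, with limma's 95% interval; red marks an adjusted p under 0.05 over all genes tested. Socs2 between Cdc42-/- and WT is the only red point, and its value between Cdc42+/- and WT, -0.60, lies close to it.

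The other genes of the pathway were taken from lists of known members. Of the other cytokines and receptors of the gamma chain family, 7 of 11 were tested and limma called 0 in any comparison, with 1, 3 and 2 at an unadjusted p under 0.05 (Cdc42+/- and WT, Cdc42-/- and WT, Cdc42-/- and Cdc42+/-), against 4.32%, 29.3% and 27.1% of all genes. For Il21r, the IL-21 receptor, the WT libraries had 98.6 and 98.4 RPKM, those labelled Cdc42+/- had 87.3 and 91.8, and those labelled Cdc42-/- had 80.5 and 71.1. The genotypes did not overlap, and the difference between Cdc42-/- and WT was -0.38 (SE 0.10, limma adjusted p 0.0716). For Il7r, the IL-7 receptor of naive and memory T cells, the WT libraries had 61.8 and 60.8 RPKM, those labelled Cdc42+/- had 85.99 and 61.1, and those labelled Cdc42-/- had 175 and 53.9. Replicate 1 of Cdc42-/- was the highest library for Il7r and replicate 2 the lowest, and the difference from WT was 0.66 (SE 0.51, limma adjusted p 0.426), or 1.50 (adjusted p 0.00303) without replicate 2.

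Of the 7 other JAK and STAT genes, 1 was called, in both comparisons that hold Cdc42-/-: Stat4, which transmits IL-12 signals. For Stat4 the WT libraries had 48.6 and 46.2 RPKM, those labelled Cdc42+/- had 48.4 and 54.5, and those labelled Cdc42-/- had 30.5 and 21.5. The difference was -0.86 (SE 0.18, limma adjusted p 0.0316) from WT and -0.97 (SE 0.18, limma adjusted p 0.027) from Cdc42+/-. Of the 17 other negative regulators, 2 were called between Cdc42-/- and WT and 1 between Cdc42-/- and Cdc42+/-, shares near or below the 11.4% and 8.22% of all genes. For Socs5, an inhibitor related to the SOCS genes above, the WT libraries had 11.3 and 9.48 RPKM, those labelled Cdc42+/- had 10.9 and 10.2, and those labelled Cdc42-/- had 6.29 and 5.53. It was lower in Cdc42-/- than in WT, -0.72 (SE 0.16, limma adjusted p 0.0378), and than in Cdc42+/-, -0.74 (SE 0.16, limma adjusted p 0.0415). For Ptpn1, a phosphatase that acts on JAK kinases, the WT libraries had 57.7 and 52.1 RPKM, those labelled Cdc42+/- had 59.1 and 53.9, and those labelled Cdc42-/- had 79.1 and 74.3. It rose in Cdc42-/- by 0.48 (SE 0.11, limma adjusted p 0.0434).

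Among the adaptors and kinases downstream of the receptor, Akt1 and Syk rose in Cdc42-/- over WT and over Cdc42+/-, with the Cdc42-/- libraries in both, and 0 genes of this list fell. For Akt1, the kinase downstream of PI3K, the WT libraries had 40.8 and 42.5 RPKM, those labelled Cdc42+/- had 44.7 and 44.8, and those labelled Cdc42-/- had 63.7 and 69.4. The rise over WT was 0.66 (SE 0.10, limma adjusted p 0.0122). For Syk, a kinase abundant in B and myeloid cells, the WT libraries had 0.655 and 0.532 RPKM, those labelled Cdc42+/- had 1.59 and 0.970, and those labelled Cdc42-/- had 9.74 and 24.6. Its rise was 3.38 (SE 0.42, limma adjusted p 0.00635), and 2.75 (adjusted p 0.00152) without replicate 2 of Cdc42-/-, where the myeloid marker Csf1r was at 73.96 RPKM against 0.933 in replicate 1.

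Genes that IL-2 or STAT5 induce in T cells moved in both directions in Cdc42-/-. Of 26 tested, 8 rose and 3 fell from WT, against 6.86% and 4.57% of all genes, and the median difference was 0.23, against 0.01 for all genes. For Gzmb, the cytotoxic protease granzyme B, the WT libraries had 1.77 and 2.56 RPKM, those labelled Cdc42+/- had 6.35 and 5.32, and those labelled Cdc42-/- had 156 and 107. The rise over WT was 5.37 (SE 0.23, limma adjusted p 0.00135). For Icos, a costimulatory receptor of effector Treg cells, the WT libraries had 38.6 and 41.2 RPKM, those labelled Cdc42+/- had 71.7 and 55.7, and those labelled Cdc42-/- had 170.3 and 184, a rise of 2.12 (SE 0.14, limma adjusted p 0.00144). For Prdm1, the transcription factor Blimp-1, the WT libraries had 4.88 and 3.37 RPKM, those labelled Cdc42+/- had 6.31 and 5.88, and those labelled Cdc42-/- had 15.1 and 15.8, a rise of 1.70 (SE 0.19, limma adjusted p 0.00443). In these 3 genes the genotypes did not overlap, and all 12 alternatives kept the calls against WT.

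The 3 that fell were Lta, Bcl2 and Ikzf4, and the last 2 are named after their values were seen. For Lta, the cytokine lymphotoxin alpha, the WT libraries had 75.95 and 65.4 RPKM, those labelled Cdc42+/- had 52.2 and 52.6, and those labelled Cdc42-/- had 34.5 and 28.02, a difference of -1.16 (SE 0.14, limma adjusted p 0.00576) from WT. For Bcl2, which protects T cells from death, the WT libraries had 70.8 and 67.7 RPKM, those labelled Cdc42+/- had 54.1 and 57.6, and those labelled Cdc42-/- had 45.96 and 38.3, a difference of -0.71 (SE 0.12, limma adjusted p 0.0178). For Ikzf4, the transcription factor Eos of Treg cells, the WT libraries had 54.96 and 54.3 RPKM, those labelled Cdc42+/- had 46.5 and 44.4, and those labelled Cdc42-/- had 32.2 and 16.1, a difference of -1.22 (SE 0.29, limma adjusted p 0.0471). Without Cdc42-/- replicate 2, where Ikzf4 was lowest, that difference was -0.75 (adjusted p 0.00299). All 3 were lowest in Cdc42-/- and intermediate in Cdc42+/-, without overlap. The calls of Stat4, Socs5, Ptpn1, Akt1, Bcl2 and Ikzf4 against WT were each lost on leaving out any of the 4 WT and Cdc42+/- libraries. That of Syk was lost without either WT library, and that of Lta without WT replicate 1 (adjusted p 0.0653).

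Compared with Cdc42+/-, 5 of the 26 rose in Cdc42-/- (Gzmb, Icos, Prdm1, Il10 and, named after its values were seen, Pim1) and 1 fell (Lta), against 4.68% and 3.54% of all genes. In this comparison 0 of all genes were called by limma without either Cdc42+/- library. For Il10, an inhibitory cytokine, the WT libraries had 2.16 and 1.52 RPKM, those labelled Cdc42+/- had 0.848 and 1.16, and those labelled Cdc42-/- had 5.40 and 12.99. It was higher than in Cdc42+/- by 2.24 (SE 0.39, limma adjusted p 0.0243). Between Cdc42+/- and WT, limma called 0 of the 26, and 8 had an unadjusted p under 0.05, against 4.32% of all genes. The 5 proliferation markers summed to 31.2 and 33.1 RPKM (WT), 108 and 96.3 (Cdc42+/-), and 418 and 587 (Cdc42-/-), and moved with these groups; their part in the results was not tested. Il7r and Bcl6, the 2 listed genes that STAT5 represses, were not called in any comparison by limma with all libraries, with 0, 0 and 1 of the 2 at an unadjusted p under 0.05.

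**Figure D5:**
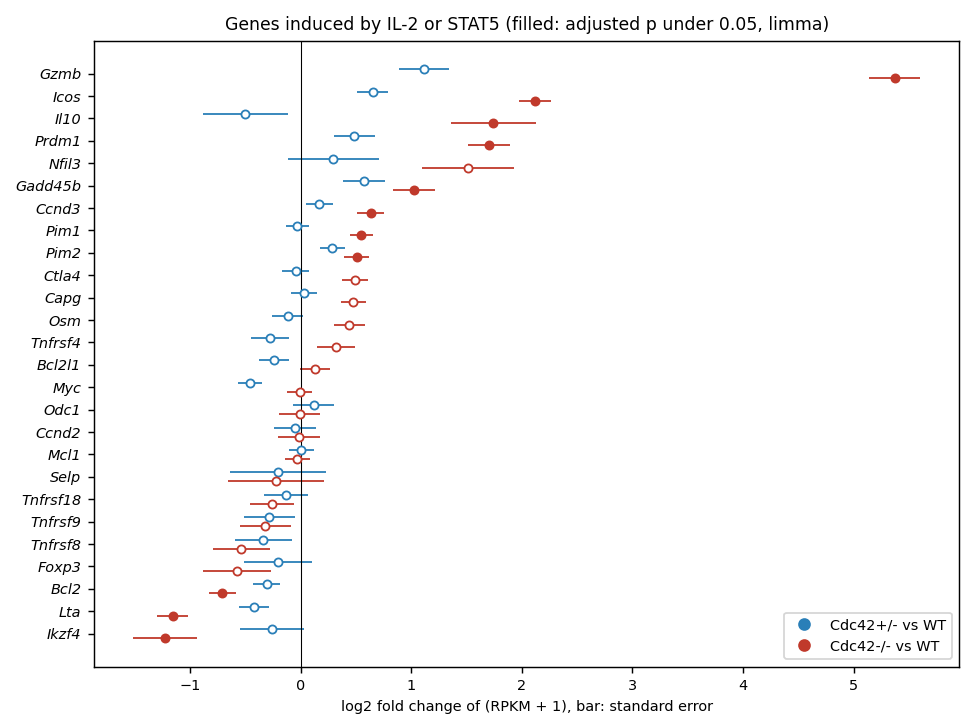
Difference from WT on the log2(RPKM + 1) scale, with its standard error, for 26 genes that IL-2 or STAT5 induce, in Cdc42+/- (blue) and Cdc42-/- (red); filled points had an adjusted p under 0.05. The 8 red points filled on the right include Gzmb at 5.37 and Icos at 2.12, the 3 filled on the left are Lta, Bcl2 and Ikzf4, and no blue point is filled.

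The genes nearest to Il2ra and Cish in pattern were ranked by the root mean square difference of centred log2(RPKM + 1) over the 6 libraries, among 8186 genes averaging 5 RPKM or more. For Il2ra these were Cirbp (0.0837), Snhg20 (0.0944) and Cfl2 (0.0973), where Il2ra varied by 0.252 about its own mean. For Cirbp, a cold-inducible RNA-binding protein, the WT libraries had 105 and 107 RPKM, those labelled Cdc42+/- had 85.4 and 76.5, and those labelled Cdc42-/- had 85.3 and 61.9. For Cish they were Zfp326 (0.0462), Ctu2 (0.0549) and Atp13a1 (0.0577), where Cish varied by 0.168. None of the other 9 genes was among the 3 nearest to either.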

How the data were processed

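RNA-seq of 6 libraries was analysed from 2 deposited tables, 1 for each knockout genotype with WT. Per the submitters' processing notes, reads were aligned with TopHat to mm10. Versions, counting tool, annotation, strand setting and filters are not given in the sources used here. The library columns hold RPKM computed by the authors, a unit worked out from the values. The group means are a signal made by the authors, reads divided by a size factor. The deposited fold change (a ratio), its log2 value, the p-value and the adjusted p-value are the authors', their test unnamed. RPKM and group means together gave back whole reads for 100% of values (tolerance 0.01 reads), with 0 genes differing between the tables in WT. There were 0 columns of unknown sample.

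limma 3.58.1 (R 4.3.3; lmFit, eBayes with trend) was run on log2(RPKM + 1), which understates the change of low genes, in a joint fit of all 6 libraries, and p-values were adjusted by Benjamini-Hochberg (threshold 0.05). It used the 12233 genes averaging 0.5 RPKM or more. The steps were tested on simulated data, and 12 alternatives were run. In limma-voom, TMM factors were computed from their definition on the recovered reads. The 10 genes, all named, and the lists were chosen with earlier results of these data known. From each list and comparison, called genes were named, 4 at most, by smallest p, or the 2 most abundant where none was called; some list results are not reported here. Positions are RefSeq's on GRCm38.p6, the assembly of mm10. In GENCODE M21, 6 of the 10 genes (Il2ra, Il2rg, Jak1, Jak3, Stat5a and Cish) overlap another annotated gene, and reads may have been shared there.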

Additional observations from a re-analysis of the deposited data

How the results depend on the processing

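Of the 10 genes, Cdc42-/- against WT had 1 called, which became 0 in the fit of only the 2 genotypes and with the replicate block, and ranged from 0 to 7 when single libraries were left out; against Cdc42+/- the range was 0 to 3. Cdc42+/- against WT had 0 throughout. Over all genes, the counts of 0, 1398 and 1006 (Cdc42+/- and WT, Cdc42-/- and WT, Cdc42-/- and Cdc42+/-) became 60, 536 and 276 with only the genotypes compared, and 0 to 76, 259 to 4433 and 0 to 4263 without single libraries, and limma-voom gave 1 in place of 0. The counts of called list genes, 0, 17 and 11, became 0, 6 and 3, and 0 to 1, 3 to 42 and 0 to 42. Signs turned with upper-quartile scaling for Jak1 (Cdc42+/- and WT, -0.013) and Cish (Cdc42-/- and WT, -0.043), and with limma-voom for Jak1 (-0.018) and Stat5b (-0.0033) between Cdc42+/- and WT and Socs1 (0.0044) between the knockouts. Without single libraries, signs turned between Cdc42+/- and WT for Jak1 (-0.068 to 0.10) and Stat5b (-0.010 to 0.075), between Cdc42-/- and WT for Il2rb (-0.35 to 0.29), Jak3 (-0.23 to 0.20), Stat5b (-0.37 to 0.029) and Cish (-0.13 to 0.21), and between the knockouts for Il2ra (-0.18 to 0.17), Il2rb (-0.040 to 0.60), Socs1 (-0.17 to 0.16) and Socs2 (-0.12 to 0.048). The cause was not tested. A genotype left with 1 library was assumed to vary like the others. The labels give replicate numbers and name no pairing of mice. Deviations of same-numbered libraries correlated at 0.0177 (WT and Cdc42+/-), 0.202 (WT and Cdc42-/-) and -0.0343 (Cdc42+/- and Cdc42-/-) across genes. Correlations of this kind cannot exclude a pairing. The replicate block gave 1144 genes between Cdc42-/- and WT, 1089 of them among the 1398. The 95% intervals printed are not adjusted for the number of genes tested, and an interval that excluded 0 did not ensure a call. Socs2 between Cdc42+/- and WT, at -0.92 to -0.29, was not called (limma adjusted p 0.489). With 2 libraries a genotype, a gene that was not called may still differ.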
